A study of Mus musculus with 40 samples.

Results

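The cytosolic ribosomal protein genes were followed across the myometrium and cervix of pregnant mice that had received human chorionic gonadotropin (hCG) or phosphate-buffered saline (PBS). Members were taken by gene symbol, not by any measured value: every row named Rpl or Rps with a number and an optional a, l, x or y, together with Rplp0, Rplp1, Rplp2 and Rpsa, while pseudogene rows and the Rps6k kinases were left out. This gave 82 members among 23079 rows of the count table, of which 47 belong to the large (60S) subunit, 32 to the small (40S) subunit and 3 to the stalk of the large subunit. RNA sequencing of total RNA was done on 40 libraries in 4 groups of 10: cervix after PBS, cervix after hCG, myometrium after PBS and myometrium after hCG. All mice were pregnant C57BL/6 animals killed at term, 18.5 days post coitum, after an intraperitoneal injection. The labels state neither the dose nor the time of injection. The series describes 10 mice per treatment for both tissues, but no label ties a library to a mouse, so p-values measure the spread between these libraries.

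Each ribosome is built from ribosomal RNA and a fixed set of proteins, most of which are needed in a single copy, and the messages for these proteins are among the most abundant in a cell. In vertebrates nearly all of them start at a cytosine followed by a run of pyrimidines, the terminal oligopyrimidine motif, which lets the mTORC1 kinase control their translation together through Larp1. In the pregnant uterus the myometrium is the contractile smooth muscle wall, while the cervix is a fibrous ring lined by stratified epithelium that softens before birth. hCG is a placental hormone that acts through the luteinizing hormone receptor.

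The promoter table (RefSeq, mouse build GRCm38.p6) held a start site for 61 of the 82 members. A run of at least 8 C or T bases that overlapped the 5 bases on either side of the start was present in 24 of these 61 members (39.3%), against 11% of 27025 genes in the table. The annotated start base was C in 20 of 61 members (32.8%) and in 18.9% of all genes. The sequence CCGGAAG, searched on both strands within 60 bases centred on the start, was present in 12 members (19.7%) and in 4.5% of genes, and TATAAA was present in 3 members (4.9%) and 3.4% of genes. Annotated starts can lie some bases from the true start, so a window without a run says only that these letters are not at the annotated position. Shown here are 10 members that the tissue and hormone comparisons turn on, 7 with such a run and 3 without. Each window has 15 bases before the start and 15 from the start on, 5′ to 3′ on the gene's strand, with the run in capitals.
Rps6, chr4:86857353-86857382, minus strand: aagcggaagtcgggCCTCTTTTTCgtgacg
Rpl27a, chr7:109519180-109519209, plus strand: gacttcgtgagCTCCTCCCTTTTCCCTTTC
Rps15a, chr7:118116133-118116162, minus strand: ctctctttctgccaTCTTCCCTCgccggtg
Rps27, chr3:90213634-90213663, minus strand: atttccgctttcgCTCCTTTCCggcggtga
Rps27l, chr9:66946071-66946100, plus strand: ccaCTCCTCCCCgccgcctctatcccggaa
Rplp2, chr7:141447636-141447665, plus strand: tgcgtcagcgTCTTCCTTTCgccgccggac
Rpl7a, chr2:26910792-26910821, plus strand: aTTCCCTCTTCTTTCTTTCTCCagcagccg
Rpl22, chr4:152324421-152324450, plus strand: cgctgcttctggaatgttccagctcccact
Rps12, chr10:23787195-23787224, minus strand: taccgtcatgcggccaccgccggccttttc
Rpl10, chrX:74270801-74270830, plus strand: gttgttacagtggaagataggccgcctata
In Rpl27a the run goes on past the window, and in Rps27l it ends upstream of the annotated start.

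Library totals ran from 5449239 to 25028360 counts. The labelled tissues were checked against defining markers. All 8 squamous epithelial markers (keratins, adhesion genes and Trp63) were higher in cervix than in myometrium after PBS. Their summed level was 8402 to 37101 against 5.32 to 15.4 counts per 1000000 (CPM). All 8 smooth muscle markers were lower (1933 to 11841 against 13060 to 28521 CPM). Within the cervix the libraries fell into a deeper class (4 PBS and 6 hCG libraries with at least 16613261 counts) and a shallower class (6 PBS and 4 hCG libraries with at most 11602678 counts). PBS cervix libraries 5 to 8 stood apart by Lars2, a mitochondrial leucyl-tRNA synthetase gene that took 3.51 to 17.54% of their counts and 0.00663 to 0.122% in the other cervix libraries. hCG cervix library 1 stood apart by skeletal muscle markers, at a sum of 4687 CPM against at most 316.9 CPM in any other hCG cervix library. hCG cervix libraries 3 and 5 had urothelial markers at 580.8 and 2170 CPM, against at most 168.8 CPM in any other cervix library. In the myometrium, PBS libraries 2 and 8 and hCG library 3 had 4.61 to 5.63% of counts on Lars2, and 3 PBS and 5 hCG libraries had yolk sac and fetal liver markers at 3617 to 21930 CPM, against 15.59 to 689.2 CPM in the other 12. In 3 of the 4 groups a library is labelled R3, and in PBS myometrium another is labelled R4, beside libraries 3 and 4; what the letter stands for is not stated.

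The members took several percent of all counts, and more in the cervix than in the myometrium. Their share was lowest at 2.59%, median 4.96% and highest at 5.72% in the cervix after PBS. It was 3.68, 4.75 and 5.91% in the cervix after hCG. The myometrium had 1.76, 2.75 and 3.36% after PBS and 2.24, 2.85 and 4.22% after hCG. After PBS only cervix libraries 6 and 7, at 2.74 and 2.59%, lay within the range of the myometrium.

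**Figure D1:**
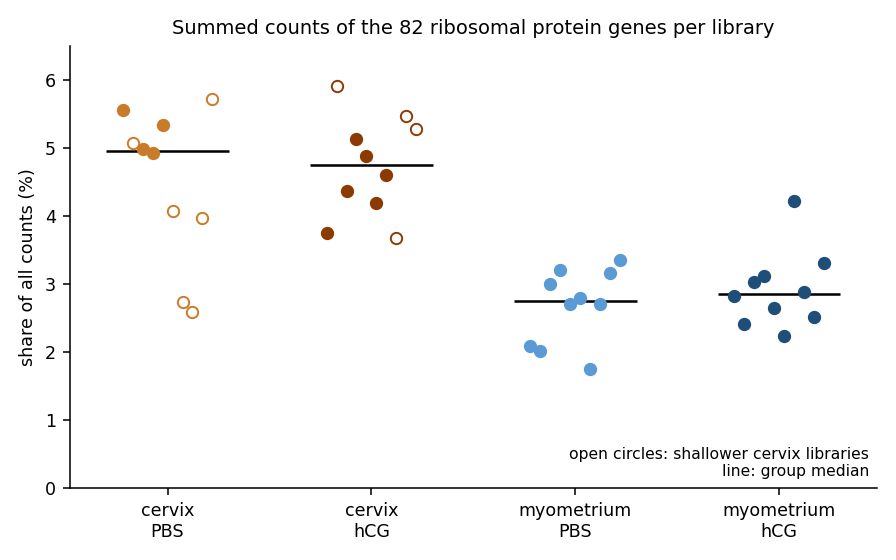
Percent of each library's counts that fell on the 82 ribosomal protein genes (vertical axis), by tissue and treatment. Each circle is 1 library, open circles are the shallower cervix libraries, and the line is the group's median; medians are 4.96 and 4.75% in cervix (PBS, hCG) and 2.75 and 2.85% in myometrium.

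In each comparison 76 members had enough counts to be tested. The untested members were Rpl26 and Rpl34, which encode core 60S proteins, and 4 genes with l-suffixed names. Rpl26 had 0 counts in all 40 libraries, which allows up to 0.12 CPM in the deepest library and 0.551 CPM in the shallowest by the limit of 3 counts. Rpl34 had 14 counts in all and 0 in 29 libraries. Since every ribosome carries both proteins, these near-zero rows were not read as absence of the message; in the annotation 28.72% of the 50-base windows of Rpl26 and 62.09% of those of Rpl34 occur in no other gene's transcript. Rpl10l, a retrocopy of Rpl10 expressed in testis, had 3 counts in all. Rpl32l had 226 counts, at most 21 in a library. Rpl39l, a paralog of Rpl39 known from testis, had 59 counts, of which 18 fell in hCG cervix library 1. Rpl3l, the paralog of Rpl3 found in heart and skeletal muscle, had 389 counts. Of these, 174 (9.07 CPM) came from the same hCG cervix library 1 that carried the skeletal muscle markers.

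Near-identical processed copies are common for this family. For 18 of the 80 members with an annotated transcript, fewer than 20% of 50-base windows were unique to the gene, and how the authors' counting treated reads that match several copies is not stated in the labels. Values for these 18, which include Rps6, Rps12, Rps27, Rpl7a, Rpl10, Rpl13, Rpl24, Rpl3, Rpl36 and Rpl36a, are therefore uncertain. The tissue difference after PBS, given in full below, had a median of 0.81 (log2) in these 18 and of 0.80 in the 57 tested members above that limit.

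Per kilobase of coding sequence, levels spread widely between members. The mean over 40 libraries was highest for Rpl41, which encodes the smallest ribosomal protein, at 7547 CPM per kilobase. Rpl39, another very short 60S protein, followed at 3109 and the 40S protein gene Rps24 at 2565. Among members detected in every library and above the trace level of the paralogs, the lowest were Rps27l (346 CPM per kilobase), the stalk gene Rplp2 (298) and Rpl36 (119). A short coding sequence with untranslated ends that are also counted inflates this measure, so the order of the shortest genes is a description only.

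The first comparison asked how the levels differ between the tissues without the hormone. After PBS, 73 of 76 tested members were higher in cervix than in myometrium and 0 were lower (edgeR quasi-likelihood test, Benjamini-Hochberg adjusted p under 0.05), against 28.1% of all 14545 genes tested that were higher and 26.1% that were lower. Among 2123 genes with a mean of at least 100 CPM, 32.9% were higher. The members' median difference was 0.80 (log2), a 1.74-fold level, with a middle range of 0.74 to 0.84, while the median of all genes was 0.04. By subunit, 40 of 41 genes of the 60S subunit were higher (median 0.77), 30 of 32 of the 40S subunit (median 0.82) and all 3 of the stalk (median 0.82). A difference between the subunits was not tested.

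Rpl27a (chr7:109519195-109522369), a 60S protein gene, had the smallest p. Its level was 506 (lowest), 792 (median) and 995 CPM (highest) in the cervix and 271, 426 and 470 CPM in the myometrium. No cervix library fell within the myometrium's range. The difference was 0.99 (log2, SE 0.135, adjusted p 2.26e-06 by edgeR's quasi-likelihood test). It was the single member whose groups did not overlap, against 7.01% of all genes whose cervix libraries all lay above the myometrium.

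Rps12, whose 40S protein lies near the beak of the small subunit, had the widest gap, 1.07 (log2, SE 0.163, adjusted p 1.01e-05 by edgeR). Its levels were 525, 948 and 1194 CPM in the cervix and 269, 434 and 578 CPM in the myometrium. The cervix median lay above every myometrium library, and the ranges overlapped only at the low end of the cervix. Rps6, the 40S protein phosphorylated by the S6 kinases downstream of mTORC1, stood at 801, 1284 and 1435 CPM against 433, 733 and 898 CPM. Its difference was 0.83 (SE 0.132, adjusted p 1.59e-05 by edgeR), again with overlap at the low end of the cervix alone. Rps27a, made as a fusion of ubiquitin with a 40S protein, stood at 462, 744 and 998 CPM in the cervix and 284, 394 and 486 CPM in the myometrium, a difference of 0.93 (adjusted p 8.2e-06 by edgeR).

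On the large subunit, Rpl4, which lines part of the peptide exit tunnel, was among the most abundant by counts. It ranged over 1156, 1703 and 1917 CPM in the cervix and 654, 979 and 1281 CPM in the myometrium (0.79, adjusted p 1.81e-05 by edgeR). Rpl22, a 60S protein that also binds RNA outside the ribosome, ranged over 210, 354 and 386 CPM against 128, 193 and 239 CPM (0.86, adjusted p 1.67e-05 by edgeR). In both genes 1 or more cervix libraries reached into the myometrium's range. Rpl36a, Rpl13, Rpl3 and Rpl6 complete the 10 members with the smallest p, with differences of 0.83, 0.93, 0.81 and 0.74 (adjusted p 4.19e-06, 1.75e-05, 4.49e-05 and 7.1e-05 by edgeR).

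The stalk proteins Rplp0, Rplp1 and Rplp2 recruit elongation factors to the large subunit. Rplp0 stood at 647, 1112 and 1894 CPM in the cervix and 363, 681 and 1017 CPM in the myometrium (0.82, SE 0.215, adjusted p 0.00271 by edgeR). Rplp1 had 179, 288 and 563 CPM against 102, 177 and 293 CPM (0.82, adjusted p 0.002 by edgeR), and Rplp2 had 62.3, 133 and 265 CPM against 39.2, 68.3 and 114 CPM (0.98, adjusted p 0.000939 by edgeR). The ranges of the tissues overlapped for all 3. Rpsa, the 40S protein also known as the laminin receptor precursor, was higher by 0.87 (adjusted p 0.000317 by edgeR).

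The 3 members that did not pass were Rps27l, Rpl36 and Rps4l. Rps27l, the paralog of Rps27 that is a target of p53, had 41.2, 96.4 and 161 CPM in the cervix and 47.2, 73.9 and 92.2 CPM in the myometrium, a difference of 0.41 (SE 0.193, adjusted p 0.0797 by edgeR). The myometrium's range lay inside that of the cervix. Rps27 itself, which encodes a zinc finger protein of the 40S subunit, had a median of 750 CPM in the cervix and 383 CPM in the myometrium (0.94, adjusted p 0.000279 by edgeR). Rpl10, which joins the 60S subunit late in its maturation, was higher by 0.39 (SE 0.156, adjusted p 0.0406 by edgeR), with 654, 1305 and 1474 CPM against 598, 974 and 1180 CPM. For Rpl10, 13 of 20 alternatives gave the same result, 5 a weaker one and 2 a reversed one.

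Rpl36 had 14.8, 24.8 and 126 CPM in the cervix and 6.73, 22.7 and 85.2 CPM in the myometrium, and its within-group spread was the widest of the 76 members (0.62, SE 0.47, adjusted p 0.274 by edgeR). Rps4l, annotated as a transcribed pseudogene, stayed at 15.9 CPM or less in both tissues (0.10, adjusted p 0.831 by edgeR). Its X-linked relative Rps4x, a core 40S gene, was higher by 0.76 (adjusted p 0.000253 by edgeR).

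**Figure D2:**
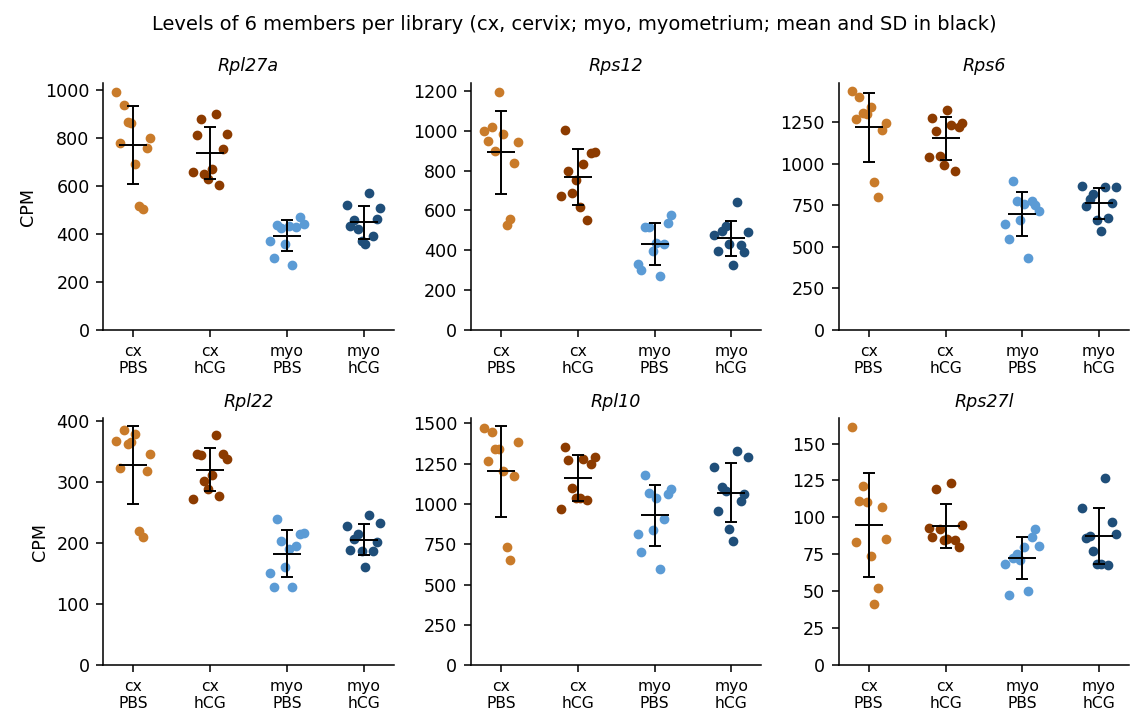
Level in CPM (vertical axis, from 0) of 6 ribosomal protein genes in every library, by tissue and treatment, with the mean and SD of 10 libraries. Rpl27a, Rps12, Rps6 and Rpl22 sit higher in the cervix, though after PBS only the groups of Rpl27a do not overlap. The groups of Rpl10 and Rps27l overlap over most of the myometrium's range.

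Other RNAs moved with the tissues. Malat1, Neat1 and Meg3, transcripts retained in the nucleus, together took a median of 1.67% of counts in the cervix after PBS and 2.98% in the myometrium; of the 3 genes 2 were lower in the cervix and 1 was higher. With this share as a covariate in the model, an alternative added after the data were seen, 32 members passed, against 28.3% of genes higher, and the median difference was 0.32. After hCG, where the shares were 2.47 and 2.32%, the same covariate left 56 members, against 25% of genes higher, and a median of 0.50. In bulk tissue, fewer cells of a type and less RNA per cell cannot be told apart, and the part of epithelial and smooth muscle content in these differences was not tested.

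After hCG the tissues were compared in 20 further libraries. Of the 76 members 59 were higher in the cervix and 0 were lower, against 24.3% of 14974 genes higher, 19.4% lower, and 21.7% of the abundant ones higher. The median difference was 0.53 (log2), or 1.44-fold, against 0.07 for all genes. By subunit 31 of 41 genes of the 60S (median 0.47), 26 of 32 of the 40S (median 0.57) and 2 of 3 of the stalk (median 0.61) passed. Without the 5 hCG myometrium libraries rich in yolk sac markers, an alternative added after the data were seen, 28 of 78 members passed with a median of 0.43, against 14.1% of genes higher. After PBS 72 members passed without the 3 such libraries, where 7639 of all genes were called in either direction. Members that passed in both treatments numbered 59, so each call after hCG was also a call after PBS. Across the 76 members the differences after PBS and after hCG ranked alike (Spearman's rho 0.80, a description over genes that share libraries).

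**Figure D3:**
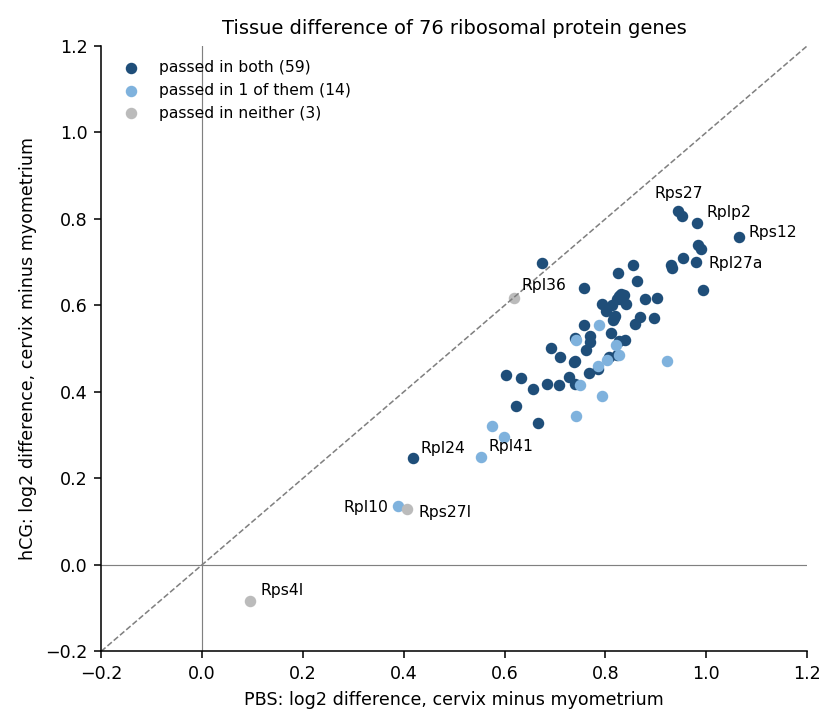
Difference between cervix and myometrium in log2 CPM after PBS (horizontal axis) and after hCG (vertical axis) for 76 ribosomal protein genes. Dark points passed in both comparisons (59), light points in 1 (14) and grey points in neither (3), and most lie below the dashed line of equal differences.

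Rpl22 had the smallest p after hCG, with 273, 324 and 377 CPM in the cervix and 161, 204 and 245 CPM in the myometrium (0.66, SE 0.0877, adjusted p 4.43e-06 by edgeR). Its groups did not overlap. Groups were also apart for Rpl27a, Rpl4, Rps23, Rps27a and Rps6, 6 members in all, against 3.09% of all genes. Rpl27a had 607, 713 and 901 CPM against 357, 446 and 572 CPM (0.73, adjusted p 1.29e-05 by edgeR).

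Rps15a, a 40S protein gene, had 479, 578 and 714 CPM against 269, 363 and 507 CPM (0.74, SE 0.108, adjusted p 1.29e-05 by edgeR). Rps27 had 585, 734 and 825 CPM against 298, 403 and 615 CPM (0.82, adjusted p 1.37e-05 by edgeR). Only the highest myometrium libraries of both genes reached the cervix. Rps6, Rps23, Rps25, Rps12, Rps27a and Rpl35a were higher by 0.61, 0.62, 0.63, 0.76, 0.69 and 0.60 (log2), all with an adjusted p of 0.000103 or less by edgeR.

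After hCG 17 members did not pass, among them Rpl10, Rpl36, Rpl41, Rplp0, Rps27l and Rps4l. Rplp0 had a difference of 0.51 (adjusted p 0.0853 by edgeR), while Rplp1 and Rplp2 passed at 0.61 and 0.79 (adjusted p 0.0107 and 0.004 by edgeR). Rpl10 had 0.14 (adjusted p 0.328) and Rps27l 0.13 (adjusted p 0.395 by edgeR). Rpl41 had 0.25 (adjusted p 0.434 by edgeR).

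Because the whole family moved, the members were also set against the family's own summed counts, which asks which of them changed less or more than the rest. After PBS 4 members differed from the family: Rps12 by 0.30 (log2, adjusted p 0.00521), Rpl24 by -0.37 (adjusted p 0.00105), Rpl10 by -0.40 (adjusted p 0.00116) and Rps27l by -0.41 (adjusted p 0.0138, edgeR). On this scale 6.94% of all genes were higher and 64.8% lower. With so many genes called, the adjustment raised p little. Unadjusted p was 0.00277, 0.000443, 0.000495 and 0.00845 in the same order (edgeR), and 5 of 76 members were under 0.05. After hCG 5 differed: Rps12 by 0.24 (adjusted p 0.037), Rps27 by 0.31 (adjusted p 0.0217), Rpl24 by -0.27 (adjusted p 0.0172), Rpl10 by -0.38 (adjusted p 0.00515) and Rps27l by -0.37 (adjusted p 0.0253, edgeR), against 6.94% of genes higher and 50.6% lower. Unadjusted p for these 5 was 0.0201, 0.0108, 0.00825, 0.00198 and 0.013 (edgeR), and 7 of 76 members were under 0.05. Chance alone gives about 5% of tests under 0.05, and the share of all genes at that p on this scale is not reported here. Rps12, Rpl24, Rpl10 and Rps27l were called in the same direction in both treatments, which share no library. Rps12, Rps27, Rpl24 and Rpl10 are among the 18 members with under 20% unique windows, at 16.45, 1.35, 18.31 and 7.87%, whereas Rps27l has 77.56%.

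The members were also grouped by their annotated start. After PBS the median difference was 0.79 in 22 tested members with a pyrimidine run at the annotated start and 0.82 in 33 without it. After hCG it was 0.54 and 0.53. Rps12, Rpl22 and Rpl10, shown above without a run, lie at 1.07, 0.86 and 0.39.

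Genes that work with the ribosome were counted from lists, to be read against the 28.1% of all genes higher and 26.1% lower after PBS. Ribosomal proteins under other names, such as Rack1 and Fau, were higher in the cervix in 5 of 5 genes after PBS, with Rack1 at 0.71 (adjusted p 0.00104), Fau at 0.66 (adjusted p 0.00583) and the Rpl22 paralog Rpl22l1 at 0.76 (adjusted p 0.00184 by edgeR). Of 18 translation factors whose messages carry the oligopyrimidine motif 13 were higher, among them Eef1g at 0.95 (adjusted p 7.97e-07) and Eef1b2 at 0.81 (adjusted p 4.12e-05 by edgeR). Of 40 ribosome biogenesis genes 38 were higher and 1 lower, with a median of 0.63. Dkc1, the pseudouridine synthase of ribosomal RNA, was at 1.35 (adjusted p 5.43e-08) and Polr1b, a subunit of RNA polymerase I, at 0.90 (adjusted p 3.13e-06 by edgeR).

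Further lists had lower medians. Of 29 other initiation and elongation factors 19 were higher (median 0.36), among them Eif6 at 1.31, which keeps the subunits apart (adjusted p 1.96e-05 by edgeR). Mitochondrial ribosomal proteins were higher in 30 of 77 and lower in 1, with a median of 0.25. Of 15 genes listed for mTORC1 and regulation of oligopyrimidine messages, Myc, Mycn and Max among them, 5 were higher and 2 lower. Myc was at 1.51 (adjusted p 1.7e-07) and Mycn at -3.75 (adjusted p 1.23e-05 by edgeR). Of 9 genes listed for p53 and its targets 4 were higher, among them Cdkn1a at 1.87 (adjusted p 3.28e-05) and Trp53 itself at 0.35 (adjusted p 0.0242 by edgeR). After hCG the counts in the same order were 2 of 5, 10 of 19, 24 of 40, 4 of 29, 16 of 77, 2 of 15 and 2 of 9 higher, and 0, 1, 1, 0, 3, 4 and 0 lower, against 24.3 and 19.4% of all genes.

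Next, each tissue was asked whether hCG altered the family. In the cervix 0 of 76 members passed (edgeR), against 8.91% of 14932 genes. At an unadjusted p under 0.05 the count was also 0, against 29.2% of all genes, and it was 0 with DESeq2 (30.6% of genes) and with limma voom (28%). Of the 76 differences 72 were below 0, with a median of -0.13, while 50.8% of all genes were above it; the 4 members above it were Rpl30, Rpl39, Rps27 and Rps27l.

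The 5 members with the smallest p in the cervix were Rpl7a, Rpl29, Rps12, Rpl11 and Rpl4. Rpl7a, a 60S protein gene, had 375, 611 and 859 CPM after PBS and 337, 494 and 801 CPM after hCG, a difference of -0.28 (SE 0.187, adjusted p 0.336 by edgeR). Rpl11, which together with Rpl5 binds Mdm2 when ribosome assembly fails, had 290, 486 and 639 CPM after PBS and 289, 390 and 601 CPM after hCG (-0.21, adjusted p 0.387 by edgeR). The groups overlapped over most of their range in both. Rpl29, Rps12 and Rpl4 had differences of -0.27, -0.20 and -0.15 (adjusted p 0.381, 0.382 and 0.408 by edgeR).

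The sign of the cervix difference was not the same in both depth classes. In the deeper libraries the family's median level per library was 587, 616, 647 and 715 CPM after PBS and ranged from 394 to 509 CPM over 6 hCG libraries, without overlap. Fitted alone, the deeper libraries gave a median difference of -0.44 and 48 of 78 members at an unadjusted p under 0.05, against 28.3% of genes, but 0 passed after adjustment (edgeR), against 1.53% of genes. In the shallower libraries the level was 318 to 665 CPM over 6 PBS libraries and 370, 592, 592 and 679 CPM after hCG. There all 76 members were above 0, against 50.8% of genes, with a median of 0.17, and 0 had an unadjusted p under 0.05, against 5.39% of genes (0.0% after adjustment). A difference between the depth classes was not tested.

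**Figure D4:**
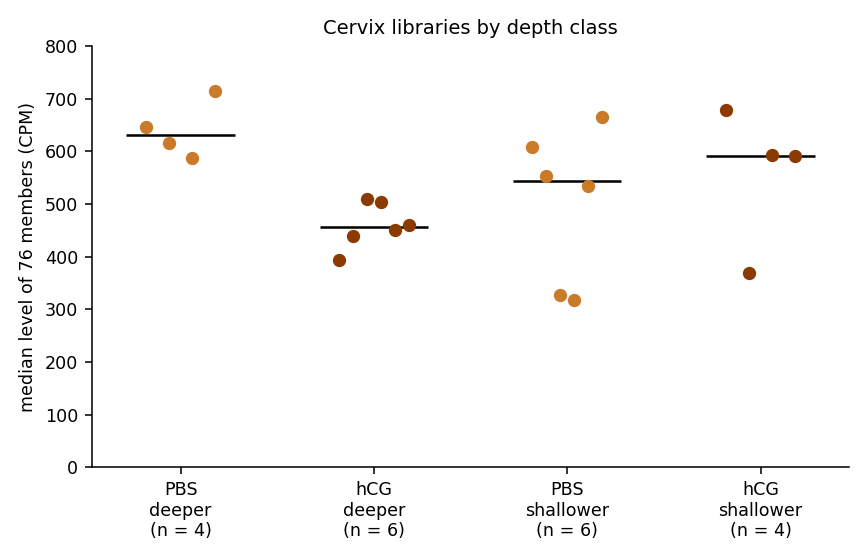
Median level of the 76 tested ribosomal protein genes in CPM (vertical axis) in each cervix library, by depth class and treatment, with the median of each set as a line. The 4 deeper PBS libraries lie above the 6 deeper hCG libraries, while the shallower sets overlap.

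The 2 lowest shallower PBS libraries in that plot are cervix libraries 6 and 7, which also had the Lars2 reads and the highest share of nuclear RNA, 3.32 and 3.36%. PBS libraries 5 to 8, those rich in Lars2, were all in the shallower class, while Lars2 took at most 0.121% of counts in any hCG cervix library. Depth class and Lars2 reads thus overlapped after PBS, and their parts in the change of sign were not tested. Without PBS libraries 5 to 8 the members' median difference was -0.33 and 31 had an unadjusted p under 0.05, against 27.3% of genes, but 0 passed (edgeR), against 0.0064% of genes. Without hCG libraries 1, 3 and 5, those with skeletal muscle or urothelial markers, the median was -0.05 and 0 members passed, against 0.0% of genes. With the nuclear share as a covariate it was 0.01.

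In the myometrium 0 members passed after hCG (edgeR), against 0.0138% of 14517 genes. Here 71 of 76 differences were above 0, against 51.8% of genes, with a median of 0.12. The nuclear RNA share had a median of 2.98% after PBS and 2.32% after hCG, and with it as a covariate 38 of 76 were above 0, against 49.5% of genes. Without the 8 libraries rich in yolk sac markers the median was 0.24, and 0 members and 0 genes in all passed. An unadjusted p under 0.05 was reached by 2 members, against 15.5% of genes, by 2 with DESeq2 (16%) and by 0 with limma voom (12.7%). Rpl30, a 60S protein gene, had 153, 304 and 400 CPM after PBS and 283, 367 and 467 CPM after hCG (0.35, SE 0.134, adjusted p 0.196 by edgeR), with wide overlap. Rps27l had 47.2, 73.9 and 92.2 CPM and 67.8, 86.5 and 127 CPM (0.27, adjusted p 0.314 by edgeR). Rpl23, Rps27a and Rpl27a followed at 0.21, 0.20 and 0.19 (log2).

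Whether the response differed between the tissues was tested as an interaction over all 40 libraries. For 74 of 76 members the response was lower in the cervix than in the myometrium, with a median of -0.25 against 0.03 for all genes, of which 52.6% were above 0, but 0 passed (edgeR), against 0.352% of 15624 genes. The direction turned with 2 surrogate variables in the model, where 45 of 76 were above 0, against 53.1% of genes, with a median of 0.03. An unadjusted p under 0.05 was reached by 3 members, against 20% of genes, by 3 with DESeq2 (21.1%) and by 2 with limma voom (22.7%). These were Rpl4 at -0.33 (adjusted p 0.201), Rpl23 at -0.34 (adjusted p 0.228) and Rpl36a at -0.31 (adjusted p 0.25 by edgeR).

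In the cervix the genes that work with the ribosome were counted after hCG against 4.17% of all genes lower and 4.74% higher. Of 40 ribosome biogenesis genes 5 were lower (median -0.28), among them Fbl, the methyltransferase of ribosomal RNA, at -0.48 (adjusted p 0.0366) and Nob1, the nuclease that completes the small subunit RNA, at -0.45 (adjusted p 0.0315 by edgeR). Of 29 initiation and elongation factors 6 were lower, with Eif3b at -0.68 (adjusted p 0.0263), Eif5a at -0.61 (adjusted p 0.0338) and Eif4g1 at -0.54 (adjusted p 0.0275 by edgeR). Of 14 tested genes listed for mTORC1 and regulation of oligopyrimidine messages Larp1 alone passed, at -0.59 (adjusted p 0.0356 by edgeR). Of 9 genes listed for p53 and its targets 3 were lower, Cdkn1a at -1.82, Sesn2 at -0.79 and Phlda3 at -0.78 (adjusted p 0.0263, 0.0303 and 0.0477 by edgeR). Of 77 mitochondrial ribosomal proteins 1 was lower, and 0 passed among the ribosomal proteins under other names and the oligopyrimidine translation factors (edgeR). None of the calls named here held without the libraries that stood apart: over the 13 genes with the smallest p in their lists, edgeR's adjusted p ran from 0.0639 to 0.135 without PBS libraries 5 to 8 and from 0.0789 to 0.183 without hCG libraries 1, 3 and 5. Calls over all genes went from 1331 to 1 and to 0 in these fits. Cell type markers moved in the same comparison: the summed squamous epithelial markers had a median of 16460 CPM after PBS and 5299 CPM after hCG (1 of 8 lower). Of the macrophage and neutrophil markers 4 of 8 were higher. So were 4 of 4 urothelial markers, though their sum had a median of 16.66 CPM after PBS and 16.98 CPM after hCG. In hCG libraries 3 and 5 that sum was 580.8 and 2170 CPM. The part of these cell types in the list counts was not tested. In the myometrium 0 genes of the 7 lists passed (edgeR), where 2 genes passed in all.

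Within a group the members rose and fell together from library to library. The median correlation between pairs of members was 0.89 in the cervix after PBS, 0.72 in the cervix after hCG, 0.88 in the myometrium after PBS and 0.80 in the myometrium after hCG, each over 10 libraries. For pairs among 2123 abundant genes it was 0.09, 0.12, 0.08 and 0.16. These are descriptions, and the members share each library's depth and scaling.

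Set relative to the family, the variation that remained lay mostly along 1 axis, which held 81.18% of the within-group variance of 76 members, with 6.81% on the next. Rpl36, Rps15, Rps4l, Rpl8 and Rpl18 lay at one end (weights 0.49, 0.28, 0.25, 0.24 and 0.23). Rpl39, Rps27a, Rps27l and Rpl30 lay at the other (-0.15, -0.13, -0.13 and -0.12). Rpl36, Rps15, Rpl8 and Rpl18 have transcripts of 60.84, 57.8, 58.05 and 58.32% G and C, and the 4 at the other end of 48.69, 48.51, 44.89 and 47.89%. The pseudogene Rps4l, at a mean of 4.73 CPM, had no value for base composition. Over 75 members the weight ranked with base composition (Spearman's rho 0.76) and not with transcript length (rho -0.06) or unique sequence (rho 0.10). It also ranked with level (rho -0.53 with the mean CPM over 40 libraries). The tissue difference after PBS did not rank with base composition (rho 0.01) or with this axis (rho -0.02).

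Genes outside the family shifted with base composition in the same libraries. For each library the 37 members of higher G and C content were set against the 38 of lower content. Among 14584 other genes, those of highest content were set against those of lowest, without the middle of the range. Both contrasts had the same sign in 36 of 40 libraries. The members' contrast reached from -0.58 to 0.47 (log2) among hCG cervix libraries.

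**Figure D5:**
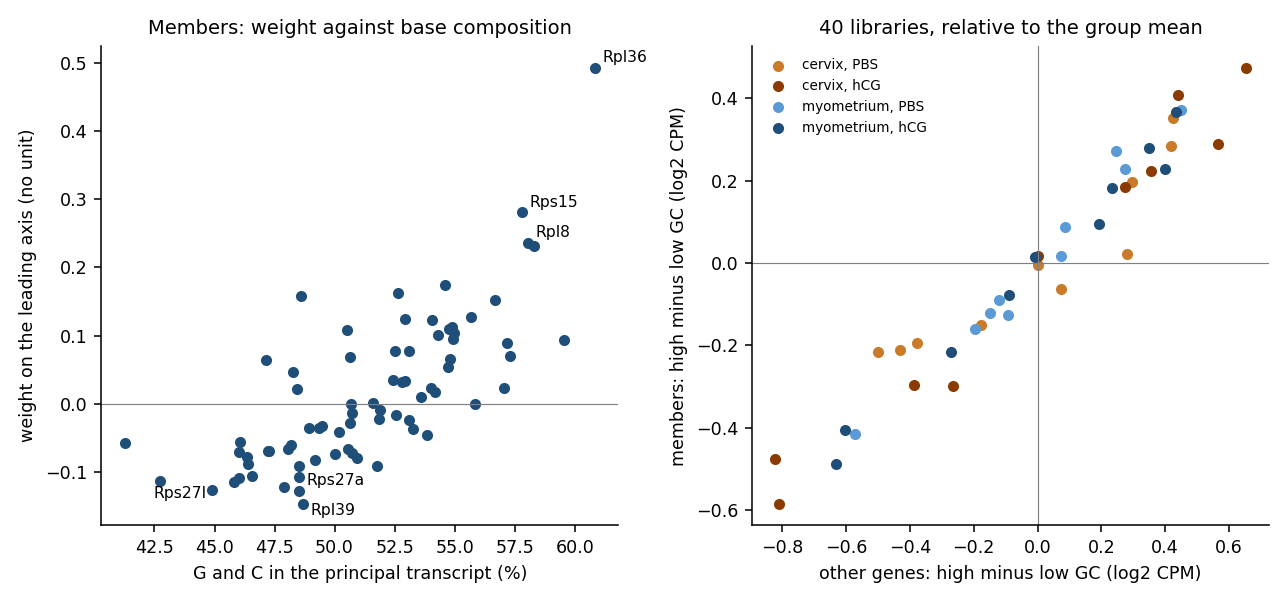
Left, weight of each ribosomal protein gene on the leading within-group axis (vertical, no unit) against the G and C content of its principal transcript in percent (horizontal). Right, for 40 libraries, the contrast in log2 CPM between members of high and low G and C content (vertical). The horizontal axis is the contrast between other genes of highest and lowest content, without the middle of the range. Both are relative to the group mean, and 36 of the 40 points have the same sign on both axes.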

How the data were processed

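The authors deposited 1 table of gene counts, with whole-number reads per gene for 40 libraries and no normalization. Libraries were made with a stranded total RNA kit, per the labels' protocols. TopHat2 and the builds mm10 and GRCm38 are named, per the submitters' processing notes. In the sources used here the counting tool is not given. Gene IDs were matched to the RefSeq table for 23008 of 23079 rows, and the 71 unmatched rows held 0.197% of counts.

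Counts were tested with edgeR 4.0.16 (quasi-likelihood F-test, robust, default expression filter, TMM factors) in R 4.3.3, with Benjamini-Hochberg adjustment over all genes tested and a threshold of 0.05. Levels are CPM after TMM over 40 libraries. The log2 differences are those of the fits at edgeR's default prior count, and a prior count of 2 was used only for log2 CPM per library. Alternatives used DESeq2 1.42.0, limma 3.58.1 and sva 3.50.0. Coding length, base composition and unique 50-base windows came from the GENCODE annotation of GRCm38. The precision of a count depends on library totals, which ran from 5449239 to 25028360; floors cover counting error only.

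The fits were tested on simulated data. Members and lists were chosen with earlier results of these data known. Named members are the 10 with the smallest p in each tissue comparison (5 where none pass) and a panel of stalk proteins, paralogs and extremes; in the hCG comparisons panel members were left as counts, a choice made after values were seen. Each member not tested is accounted for in the text, and some tested members are not reported here by name. Comparisons that share a group of libraries are not independent.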

Additional observations from a re-analysis of the deposited data

Results flagged for a closer look

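In 136 groups of 10 libraries (the named members in each group), 2 had 1 library far from the rest by Dixon's criterion, where chance alone gives about 5% of groups. Rplp1 had its highest level, 562.6 CPM, in PBS cervix library 4, against a group median of 288.2 CPM. Rps4l had its highest level, 15.86 CPM, in PBS myometrium library 4, against a group median of 3.54 CPM. The cause was not tested in either.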

How the results depend on the processing

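Under the alternatives other than those named next, 61 to 75 members were higher in the cervix after PBS and 41 to 72 after hCG. In these fits 6298 to 9232 of all genes were called in either direction after PBS and 5443 to 8449 after hCG. Scaled to the family's own counts, 4 members passed after PBS (1 higher, 3 lower) and 5 after hCG (2 higher, 3 lower), because this scale removes the shared shift. The nuclear RNA covariate left 32 after PBS, and leaving out 5 hCG myometrium libraries rich in yolk sac markers left 28 after hCG, with 10 against 5 libraries; the causes were not tested. Leaving out each library gave 71 to 74 members after PBS and 52 to 61 after hCG, and 0 to 0 in the hCG comparisons and the interaction. The calls over all genes in those fits are not reported here. With no filter on low counts 1 member passed in the hCG comparison of the cervix, Rpl39l at 3.997 (log2, adjusted p 0.0358 by edgeR), which rests on 1 count after PBS and 36 after hCG, 18 of them in library 1; after PBS it was lower in the cervix by -2.66 (adjusted p 0.0134), on 1 count against 12.

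Same-numbered libraries were not shown to pair (correlation over 0.1 in 5 of 9, 3 of 9, 4 of 9 and 3 of 8 pairs; each best with its own number in 3, 3, 2 and 2). With the replicate number as a block, 75 and 43 members passed in the tissue comparisons after PBS and hCG, where 8229 and 5805 of all genes were called in either direction. In the cervix, the myometrium and the interaction 0, 0 and 0 members passed, where 1186, 2 and 0 of all genes were called. In the interaction 45 of 76 members had an unadjusted p under 0.05 (edgeR), and the share of all genes at that p is not reported here. Rpl36 turned to -0.029 in the tissue comparison after hCG.

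Under family scaling these turned sign after PBS: Rpl6 (-0.031), Rps27l (-0.41), Rpl10 (-0.40), Rps4x (-0.012), Rps4l (-0.69), Rpl41 (-0.20), Rps24 (-0.025), Rpl36 (-0.15), Rack1 (-0.055), Rpl22l1 (-0.061), Fau (-0.11) and Eif5a (-0.022). Calls in the lists became 1, 7, 7, 18, 5 and 64 (other names, oligopyrimidine factors, biogenesis, other factors, p53 and its targets, mitochondrial). After hCG the same scaling gave Rplp0 (-0.026), Rps27l (-0.37), Rpl10 (-0.38), Rps4x (-0.014) and Rpl41 (-0.28), and 1, 4, 8, 19 and 6 list calls without the mitochondrial list. The nuclear covariate after PBS turned Rpl10 (-0.038), Rps4l (-0.30), Rpl41 (-0.015) and Rpl36 (-0.50). In the hCG tissue comparison the shallower cervix turned Rps27l (-0.006) and Rps4l (0.42), the deeper cervix Rpl41 (-0.072), and leaving out hCG cervix libraries 1, 3 and 5 Rps4l (0.048), and leaving out the yolk sac libraries Rps27l (-0.001) and Rps4l (0.082). Leaving out single libraries moved Rps4l from -0.069 to 0.474 after PBS and from -0.349 to 0.031 after hCG. In the cervix the shallower libraries turned Rpl7a (0.057), Rpl29 (0.118), Rps12 (0.069), Rpl11 (0.102) and Rpl4 (0.036) above 0. Mitochondrial list calls there became 1 with upper-quartile factors and 3 with all 40 libraries in 1 fit. The depth splits against the myometrium, the libraries left out of the myometrium and both covariates (base composition, nuclear RNA) were chosen after seeing the data.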

Other observations

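Rps3a1, which encodes a 40S protein but whose symbol falls outside the naming rule, was higher in the cervix by 0.84 (log2, adjusted p 7.84e-05 by edgeR) after PBS and by 0.56 (adjusted p 0.000106 by edgeR) after hCG. The p53 target Cdkn1a was at 85.3 ± 60.6 CPM (SD, n = 10) in the cervix after PBS and at 24.1 ± 10.8 CPM after hCG, and at 23.6 ± 4.01 and 23.5 ± 6.68 CPM in the myometrium. Phlda3, another p53 target, was higher in the cervix than in the myometrium by 2.09 (log2) after PBS. Of the 9 genes listed for p53 and its targets 5 did not pass there. Rps27l, a p53 target among the ribosomal protein genes, did not pass in the main fits of the 5 comparisons on the CPM scale. Its tissue difference after PBS ran from -0.41 to 0.84 over 20 alternatives, and the result was stronger in 5 of them.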
